A study of Mus musculus with 28 samples.

Results

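Heterotrimeric G proteins couple membrane receptors to enzymes and channels inside the cell. A Gα subunit binds guanine nucleotide and holds a Gβγ dimer; an activated receptor exchanges the nucleotide, Gα and Gβγ part, and both act on effectors until Gα hydrolyses its GTP. In neurons the Gi/o class (Gnao1, Gnai2) restrains adenylyl cyclase and, through Gβγ, presynaptic calcium channels. Gnas encodes the stimulatory Gαs and Gnaq the activator of phospholipase Cβ. In the eye a specialised heterotrimer, transducin, relays the light signal, and the Gβ subunit of rod transducin is the product of Gnb1.

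The genes described are 10 of the 23995 listed in the deposited tables: the Gβ genes Gnb1, Gnb2, Gnb4 and Gnb5, the Gα genes Gnao1, Gnas, Gnai2 and Gnaq, and the Gγ genes Gng2 and Gng3. All 10 were found by symbol. They were chosen by their measured levels in these libraries, Gnb1 because it is the most abundant gene of several libraries, so their levels and differences are given as a description without p-values. The other 23 heterotrimeric subunit genes, which were not chosen that way, were tested.

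Ribosome-bound mRNA was immunoprecipitated through the HA tag from C57BL/6 mice that combined the RiboTag allele of Rpl22 with Pax6-alpha-Cre. Superior colliculus (SC) of Cre-positive mice gives ribosomes of retinal ganglion cell (RGC) axons, SC of Cre-negative littermates, which carry no tagged ribosome, gives the background of the method, and Cre-positive retina gives the cell bodies. Each was sequenced at E17.5, P0.5, P7.5 and adulthood with 2 replicates, 24 libraries in 12 groups, and 4 further adult libraries (Cre-positive SC and retina, each with and without ribosome run-off) had 1 library each. The Cre is active in progenitors of the peripheral retina, so that every retinal cell type born there carries the tag, and tissue of several animals was pooled in a library. Whether replicates came from separate litters is not stated, and p-values measure only the spread between these libraries.

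The 24 libraries hold FPKM, a fragment count scaled to transcript length and to the mapped total, with no read totals. From the spacing of low values, 515831 to 14469211 fragments were estimated per library, and the 4 adult SC libraries, with 559911 to 2203447, were among the 5 shallowest. In a transcript of 2 kb, 3 fragments correspond to 0.115 FPKM in the deepest library and 3.23 FPKM in the shallowest. The photoreceptor list (12 genes) summed to 416 and 582 FPKM in adult retina. It summed to 133 FPKM, with 11 genes above 0, in replicate 1 of adult Cre-negative SC, a library labelled as SC, and to at most 13.9 FPKM in every other SC library. The 8 RGC markers summed to 28.8 to 3507 FPKM in Cre-positive SC, 0 to 2060 FPKM in Cre-negative SC and 108 to 7430 FPKM in retina. Pou4f1 alone gave 3501 of the 3507 FPKM. At P0.5, 1 of the 5 fitted (Slc17a6) rose in Cre-positive SC and none fell. Their median difference was 0.0, beside 0.776 for all genes. Pou4f1 was at 230.5 and 85.98 FPKM in Cre-positive and 704.5 and 191 in Cre-negative SC. Nefl was at 47.5 and 17.54 FPKM against 4.22 and 2.82. The groups overlapped for Pou4f1 and Pou4f2 but not for Nefl, which was not called. The 8 glial markers summed to 0.383 to 1020 FPKM in SC, with the highest sum in replicate 2 of adult Cre-negative SC. In that library 1162 genes were above 0. Its blood and microglia markers (5 genes) summed to 1318 FPKM, beside 0.0237 to 1655 FPKM across SC. At P0.5 the glial markers summed to 45.4 and 35.9 FPKM in Cre-positive and 5.76 and 10.6 in Cre-negative SC, where 1 of the 5 fitted (Aldh1l1) rose. Their part in the results was not tested.

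Gnb1 (ENSMUSG00000029064, chromosome 4, 155491361 to 155559269 of mm10, plus strand) was the gene with the highest FPKM in 10 of the 24 libraries. These were 3 of Cre-positive SC, 5 of Cre-negative SC and 2 of retina. Where Gnb1 held another number above 0, its rank was between 2 and 5. Actb, cytoplasmic actin, led 9 libraries, and Tubb5, Dpysl2, Otub1, Ptges3 and R3hdm4 led 1 each. On the scale of fragments, by FPKM times transcript length, Gnb1 led 12 libraries.

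At E17.5 Gnb1 was at 5360 FPKM in replicate 1 of Cre-positive SC and 3810 in replicate 1 of Cre-negative SC, and both replicates 2 carry the mark HIDATA in place of a number. Retina had 16210 and 31028 FPKM at this stage. At P0.5 both Cre-positive libraries carry that mark, whereas Cre-negative SC had 35231 and 22718 FPKM. The retina libraries of P0.5 had 45000 FPKM in replicate 1 and an entry of 0 in replicate 2. At P7.5 Cre-positive SC had 26687 and 24503 FPKM and Cre-negative SC 18986 and 27079. In the adult, Cre-positive SC had 14989 and 43481 FPKM and Cre-negative SC 36690 and 64220. The 2 SC groups overlapped at P7.5 and in the adult. Their difference, Cre-positive minus Cre-negative on log2(FPKM + 1), was 0.17 ± 0.26 (SE, n = 2 and 2) at P7.5 and -0.93 ± 0.87 in the adult. Among the 7 Cre-negative libraries with a number, which hold no tagged ribosome, the lowest value was 3810 FPKM and the median 27080, beside a median of 24500 FPKM over the 5 Cre-positive ones.

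**Figure D1:**
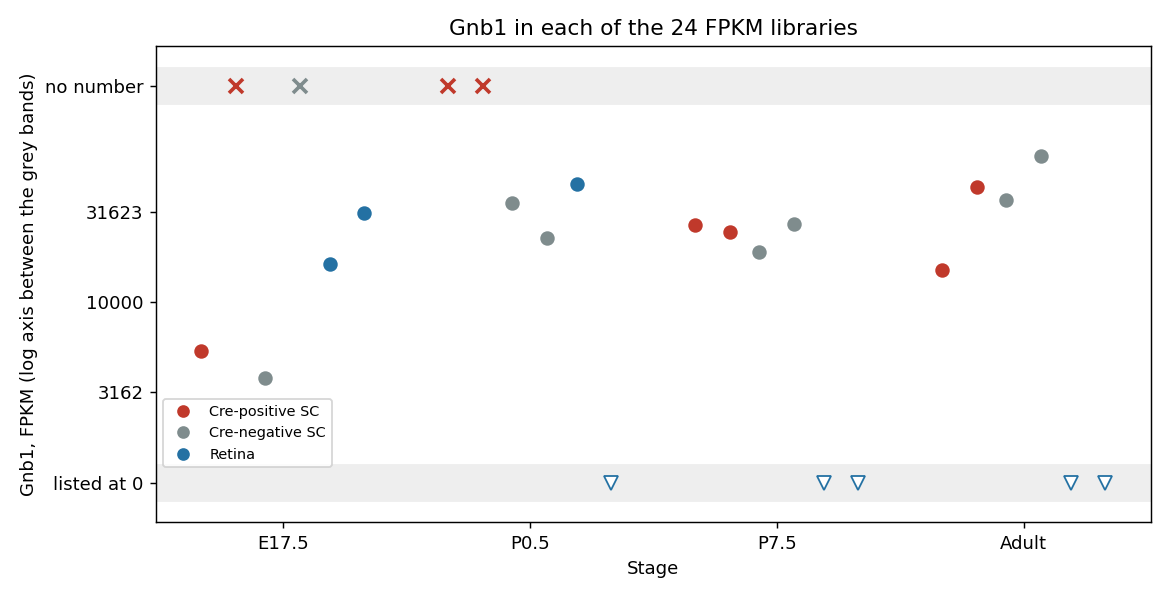
Gnb1 FPKM (log axis) by stage in the 24 libraries, 1 symbol a library, colored by tissue and Cre. Crosses in the upper band are the 4 libraries without a number, triangles in the lower band the 5 retina libraries with an entry of 0, and the SC points of P7.5 and adult overlap between Cre groups.

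All 5 entries of 0 for Gnb1 were in retina: P0.5 replicate 2 and both libraries of P7.5 and adult. Actb was also listed at 0 in 3 retina libraries, and Tubb5 and Set in 2 each, although all cells use these genes, so an entry of 0 for Gnb1 is given here only as listed. The run-off experiment, counted separately on other adult libraries, listed Gnb1 as the gene with the most reads in all 4 files. In retina without run-off 1427132 of 4686284 reads on genes were on Gnb1, 30.5% (exact 95% interval 30.4 to 30.5). In Cre-positive SC without run-off the figure was 266620 of 3262914 reads, 8.17% (interval 8.14 to 8.20). The adult FPKM libraries of SC corresponded to an estimated 4.36 to 18.7% of mapped fragments on Gnb1. Adult retina, with Gnb1 listed at 0 in the FPKM files and holding the most reads in the counted ones, is where the 2 kinds of file differed.

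The members occupy separate loci. Coordinates are those of the GENCODE annotation on mm10. Gnb2 lies on chromosome 5, 137528127 to 137533510, minus strand, Gnb4 on chromosome 3, 32580332 to 32616585, minus strand, and Gnb5 on chromosome 9, 75306288 to 75345876, plus strand. Gnao1 lies on chromosome 8, 93809966 to 93969388, and Gnas on chromosome 2, 174284320 to 174346744, both on the plus strand. Gnai2 lies on chromosome 9, 107614125 to 107635367, minus strand, and Gnaq on chromosome 19, 16132831 to 16387463, plus strand. Gng2 lies on chromosome 14, 19872559 to 19977627, and Gng3 on chromosome 19, 8836933 to 8839194, both on the minus strand. Exons of Gng3 share 398 of their 1643 bases with Bscl2 on the other strand, and those of Gnas share 988 bases with its antisense gene Nespas. Gnao1 shares 284 exon bases with 4930488L21Rik on the other strand, and Gnb2 104 bases with Epo on its own. Since counting by strand is not stated, reads of these stretches cannot be assigned to 1 of the partners. Transcripts of Gnb1 share no run of 50 bases with transcripts of another annotated gene.

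Of the Gβ genes apart from Gnb1, Gnb2 was the most widely seen. It was above the level of 3 estimated fragments in 4 of 8 Cre-positive SC, 7 of 8 Cre-negative SC and 7 of 8 retina libraries. Its highest values were 312 and 173 FPKM, in the Cre-positive SC libraries of P0.5. At E17.5 it was at 2.13 and 0.166 FPKM in Cre-positive and 171 and 13 FPKM in Cre-negative SC, so that both Cre-positive libraries were below both Cre-negative ones at that stage. Gnb5, the atypical Gβ that pairs with R7-class RGS proteins, was at 43.7 and 16.4 FPKM in Cre-positive SC of P0.5 and at most 0.709 FPKM in the other Cre-positive libraries. Gnb4 was close to undetected: its only value over 1 FPKM was 15.8, in the shallowest library, Cre-negative SC replicate 1 of E17.5.

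Among the Gα genes, Gnas and Gnaq were above 0 in all 8 Cre-positive SC and all 8 retina libraries. Gnas ranged from 0.570 to 549 FPKM in Cre-positive SC, with a median of 39.2, and from 0.299 to 43.3 FPKM in retina, with a median of 5.15. Gnaq ranged from 0.266 to 344 FPKM in Cre-positive SC and from 0 to 327 in Cre-negative SC, with medians of 19.8 and 34.5. Gnao1, the most abundant Gα of brain membranes, had medians of 35.5 FPKM in Cre-positive SC, 2.49 in Cre-negative SC and 5.06 in retina. Gnai2, an inhibitory Gα, was above 3 estimated fragments in 5 Cre-positive, 2 Cre-negative and 7 retina libraries, and its highest value was 27.8 FPKM, in replicate 1 of adult Cre-negative SC.

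The Gγ genes anchor Gβ at the membrane. Gng3, a neuronal Gγ, was above 3 estimated fragments in 5 Cre-positive and 3 Cre-negative SC libraries and in 6 of retina. Its highest value, 229 FPKM, was in Cre-negative SC replicate 1 of E17.5, and the other library of that group had 0.228. Gng2 passed that level in 4 Cre-positive, 1 Cre-negative and 3 retina libraries, with 54.7 and 0.111 FPKM in Cre-positive SC at E17.5.

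Replicates of 1 group often disagreed more than groups did. In adult Cre-positive SC, Gnas was at 323 and 0.570 FPKM, Gnao1 at 75.0 and 0, and Gng2 at 0 and 46.4. In adult Cre-negative SC, replicate 2 listed 0 for all members but Gnb1. At E17.5, Gnas had 332 and 0.982 FPKM in Cre-negative SC. In Cre-positive SC of P0.5, by contrast, all 9 members with a number were above 0 in both libraries.

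**Figure D2:**
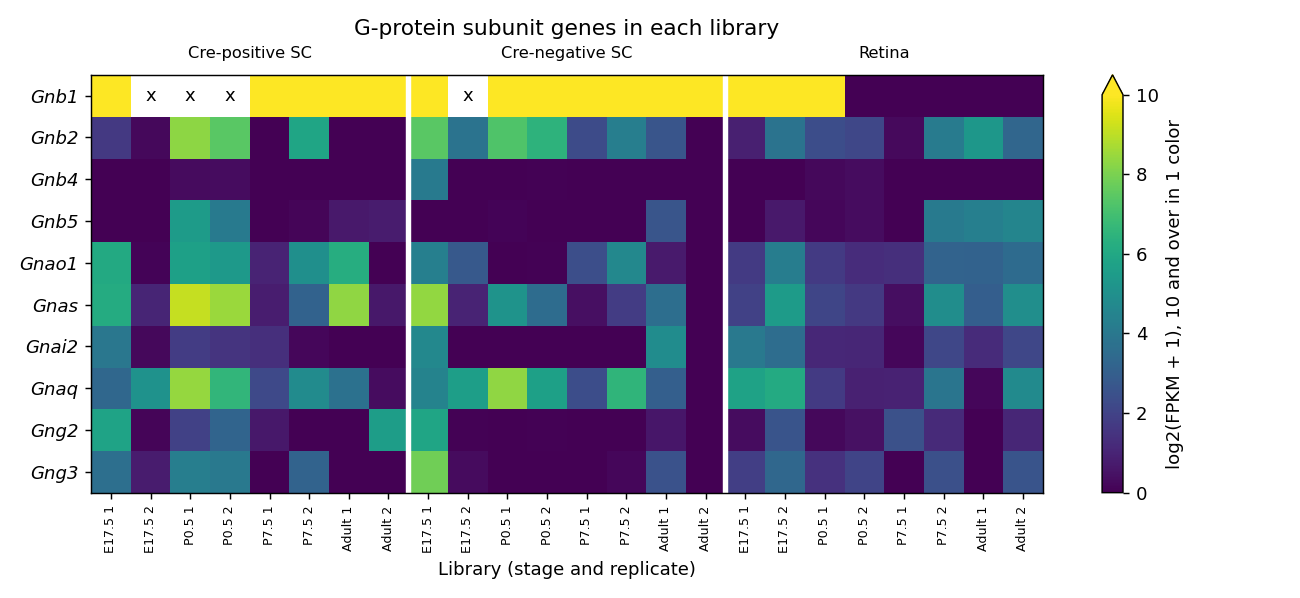
Level of each of the 10 members, log2(FPKM + 1), in the 24 libraries ordered by tissue and Cre, stage and replicate; x marks the 4 Gnb1 entries without a number and values of 10 and more share 1 color. Gnb1 is high in every SC library with a number and is listed at 0 in 5 retina libraries. Gnb4 is near 0 apart from 1 library, and the P0.5 columns of Cre-positive SC stand above their Cre-negative counterparts for most members.

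At P0.5 most members were higher in Cre-positive than in Cre-negative SC. Gnas was at 549 and 360 FPKM in Cre-positive SC and at 34.1 and 10.5 in Cre-negative SC. Its difference was 4.47 ± 0.86 (SE, n = 2 and 2) on log2(FPKM + 1). Gnao1 was at 50.5 and 40.2 FPKM against 0 and 0.0304, and Gng3 at 18.3 and 15.6 FPKM against 0 in both Cre-negative libraries. Their differences were 5.50 ± 0.16 and 4.16 ± 0.11. The SE of a member's difference comes only from the libraries compared. In the limma fit of the 16 SC libraries, described below, the SE were 2.912 for Gnas, 2.305 for Gnao1 and 2.081 for Gng3. None of these was called. For differences of genes that are not members, ± is the SE of the limma fit, so it cannot be set beside that of the members. In a tissue extract, fewer cells or axons of a type and less RNA in each cannot be told apart.

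Gnb5 was at 43.7 and 16.4 FPKM against 0.0721 and 0, a difference of 4.75 ± 0.68. Gng2 was at 2.87 and 8.27 FPKM against 0 and 0.0485, and Gnai2 at 2.41 and 1.87 FPKM against 0 in both. Gnb2 and Gnaq had the highest Cre-negative values among the members with a number in Cre-positive SC of P0.5. They differed less than the other 6 past the floor described next. Gnb2 had 312 and 173 FPKM against 151 and 87.9, a difference of 1.0 ± 0.57. Gnaq had 344 and 94.1 FPKM against 327 and 51.0, a difference of 0.47 ± 1.62, and here the groups overlapped.

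Of the 8 members that reached 1 FPKM in at least 2 of the 4 SC libraries of P0.5, 7 had both Cre-positive values above both Cre-negative ones. The same was seen in 67.5% of all 4014 genes past that floor. Gnb5, Gnao1, Gnai2, Gng2 and Gng3 reached 1 FPKM only in the Cre-positive libraries, which fixed their order, so the count is a description and no support. Gnb4 stayed under the floor, at 0.227 and 0.257 FPKM against 0 and 0.0327, and Gnb1 had no number. These levels also took part in the choice of the members.

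By mean level at P0.5 in Cre-positive SC, Gnas came first with 454 ± 134 FPKM (SD, n = 2). It was followed by Gnb2 with 242 ± 98.3 and Gnaq with 219 ± 177, whose ranges overlapped. Gnao1 with 45.4 ± 7.33 and Gnb5 with 30.0 ± 19.3 FPKM overlapped too, and the ranges of Gnb5 and Gng3, with 16.9 ± 1.93 FPKM, also did. Gng2 with 5.57 ± 3.82, Gnai2 with 2.14 ± 0.379 and Gnb4 with 0.242 ± 0.0215 FPKM closed the order, and their ranges were apart. FPKM is per length, so these levels can be set beside each other within the error of the annotated lengths. For Gng2 the coding transcripts run from 393 to 3826 bases.

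**Figure D3:**
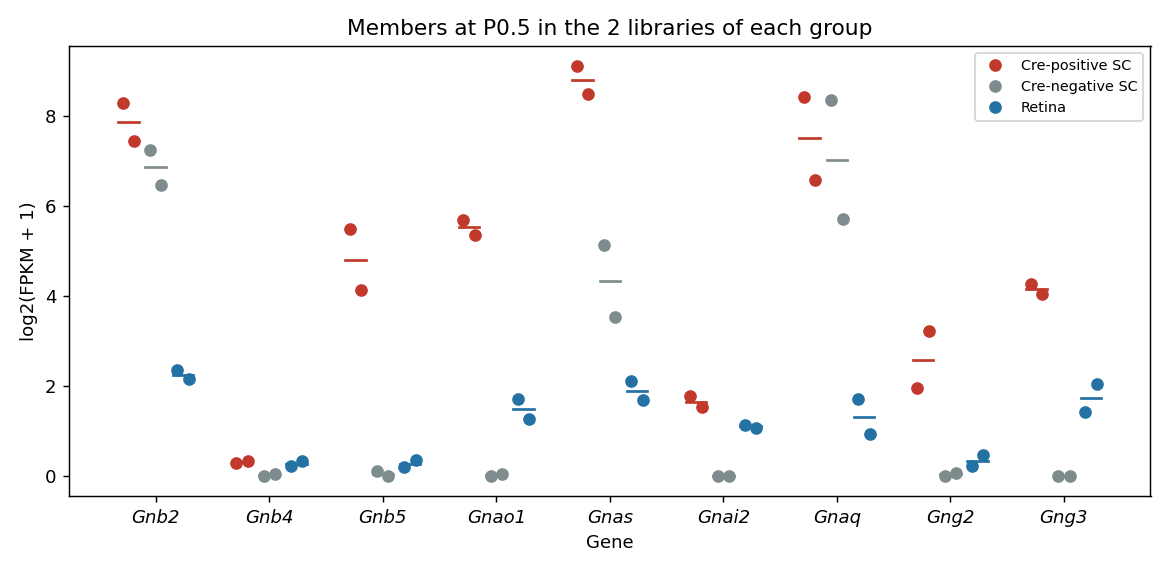
log2(FPKM + 1) of the 9 members other than Gnb1 at P0.5, with 1 point a library and a line at the mean of the 2 libraries in each group. Cre-positive points lie above both other groups for Gnb2, Gnb5, Gnao1, Gnas, Gnai2, Gng2 and Gng3, whereas those of Gnaq overlap Cre-negative SC.

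At the other stages fewer members were past that floor: 7 of E17.5, 5 of P7.5 and 3 of adult SC. At E17.5, Gnb2 alone had both Cre-positive values below both Cre-negative ones, beside 11.4% of 2914 genes, and Gnb1 could not be compared. At P7.5 none of the 5 had both Cre-positive values on top, beside 7.15% of 1845 genes, and Gnai2, under the floor, had 1.53 and 0.138 FPKM against 0 in both. In adult SC none of the 3 was apart in either direction, beside 11.7% of 1524 genes higher and 11.4% lower. That overlap rests on Cre-negative replicate 1, which holds photoreceptor transcripts, and on replicate 2, which lists 0 for all members but Gnb1. Gnas was at 0.748 and 7.81 FPKM in Cre-positive SC at P7.5 and 0.340 and 2.45 in Cre-negative SC. Gnao1 had 0.979 and 30.9 FPKM against 4.33 and 24.7.

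Within Cre-positive SC, Gnas passed from 70.5 and 1.04 FPKM at E17.5 to 549 and 360 at P0.5, to 0.748 and 7.81 at P7.5, and to 323 and 0.570 in the adult. Gnaq passed from 9.21 and 33.0 FPKM to 344 and 94.1, then to 3.67 and 27.3, and then to 12.3 and 0.266. For both genes the 2 values of P0.5 were above all values of the other stages. Gnb5 was at 0 in both libraries of E17.5 and at 0 and 0.0899 FPKM at P7.5, on either side of its P0.5 values. Gng2, Gnai2 and Gnao1 did not have their highest value at P0.5. Gng2 reached 54.7 and Gnai2 14.8 FPKM at E17.5, and Gnao1 75.0 FPKM in the adult, each in 1 of 2 libraries.

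Compared with retina of the same stage, Cre-positive SC at P0.5 was higher in both libraries for 8 of the 8 members past the floor, beside 78.3% of 3999 genes. Gnb5 and Gng2 passed it only through the SC libraries. Gnaq reached 1 FPKM in only 1 retina library, so it too needed the SC libraries to pass. Gnas was at 3.29 and 2.2 FPKM in P0.5 retina, Gnaq at 2.28 and 0.891, and Gnb2 at 4.10 and 3.43. The differences of Cre-positive SC from retina were 6.91 ± 0.37, 6.18 ± 1.01 and 5.61 ± 0.44 on log2(FPKM + 1). SC libraries went through more rounds of PCR than retina, so source and amplification cannot be told apart.

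In the adult the order was the other way for some members. Of 7 members past the floor there, 3 were lower in both Cre-positive SC libraries than in both retina libraries, beside 30.3% of 1901 genes, and all 3 passed it only through retina. Gnb5 was at 19.0 and 22.1 FPKM in adult retina and 0.620 and 0.709 in Cre-positive SC. Gnb2 was at 38.1 and 8.88 FPKM in retina and at 0 in both SC libraries, and Gnai2 at 1.33 and 3.34 FPKM in retina and at 0 in both SC libraries. In these SC libraries 3 fragments on a 2 kb transcript correspond to 2.10 and 1.21 FPKM, so a level like that of Gnai2 in retina was hardly detectable.

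Retina changed in its own way. Gnb5 was at 0 and 0.591 FPKM at E17.5, 0.137 and 0.267 at P0.5, 0 and 15.9 at P7.5, and 19.0 and 22.1 in the adult, so that both adult values were above all earlier ones. Gnaq had its highest retina values at E17.5, 53.0 and 68.3 FPKM, and Gnai2 likewise, 15.5 and 10.8 FPKM. Gnao1 stayed between 1.41 and 17.7 FPKM in all 8 retina libraries. In replicate 1 of P7.5 retina 7 members were lower than in replicate 2, Gng2 was higher, and Gnb4 and Gnb1 were listed at 0 in both.

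Calls were made with limma on log2(FPKM + 1) with Benjamini-Hochberg adjustment over all genes and a threshold of 0.05. The members took part in this fit, apart from Gnb1, which lacks a number in 4 libraries, and Gnb4, which reached 1 FPKM in only 1 library. Besides the Cre-positive libraries of P0.5, Gnb5 reached 1 FPKM in only 1 SC library, a Cre-negative one of the adult. It therefore passed the filter of the SC fit only through the group in which it was high. Calls of members are a description and no support. For Cre-positive against Cre-negative SC, 32.5% of all genes were called at P0.5, beside 1 of the 8 members fitted (Gnb5). At E17.5 the share was 1.57%, at P7.5 0.0% and in adult SC 0.15%, beside no member. Between P0.5 and E17.5 in Cre-positive SC, 26.9% of genes were called and 2 members (Gnb2 and Gnb5), between P7.5 and P0.5 29.8% and 1 member (Gnb5), and between adult and P7.5 0.0836% and no member. The difference between the Cre contrasts of consecutive stages was called for 27.1% of genes from E17.5 to P0.5 and 21.5% from P0.5 to P7.5, with Gnb5 in both, and for 0.0% from P7.5 to the adult. Against retina, the share for Cre-positive SC was 1.32% at E17.5, 27.9% at P0.5 with 3 members (Gnb2, Gnb5 and Gnaq), 0.0% at P7.5, and 0.0973% for adults. Between consecutive stages of retina they were 0.0% from E17.5 to P0.5, 0.0735% from P0.5 to P7.5 and 0.0% from P7.5 to the adult, with no member. Where 0 genes were called, 84 had an unadjusted p under 0.05 for Cre at P7.5, 134 for the last difference of Cre contrasts, 212 for SC against retina at P7.5, and 34 and 57 for the retina steps.

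The other 23 subunit genes were largely absent from SC, as 9 of them reached 1 FPKM in at least 2 SC libraries. At P0.5, 2 of the 9 rose and 1 fell in Cre-positive against Cre-negative SC, a share of calls close to the 32.5% of all genes, of which 28.1% were higher. Gnaz, a Gi-class Gα of neurons, was at 37.9 and 21.8 FPKM against 0 in both, a difference of 4.89 ± 0.72 (limma, adjusted p = 0.000332). Gna13, a Gα of the G12/13 class, was at 5.60 and 3.83 FPKM against 0 in both, a difference of 2.50 ± 0.74 (limma, adjusted p = 0.0241). Gng7 fell, from 41.1 and 13.3 FPKM in Cre-negative to 0 in both Cre-positive libraries, a difference of -4.62 ± 1.35 (limma, adjusted p = 0.0234). The call of Gna13 was lost on leaving out any of the 4 P0.5 SC libraries, at values of 2.27 to 2.72, and that of Gng7 on leaving out either Cre-positive library or Cre-negative replicate 1, at values of -4.62 to -3.84. Gnaz kept its call in all 9 alternatives. Gnaz and Gng7 passed the filter of 2 libraries only through the P0.5 group in which each was high. Their entry into the test was therefore not independent of the difference.

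The subunit gene with the highest mean FPKM among those not chosen was Gna11, the close relative of Gnaq. It was at 1995 and 687 FPKM in Cre-positive SC at P0.5 and at 511 and 107 in Cre-negative SC, and at most 3.92 FPKM in the other Cre-positive libraries. It rose by 8.84 ± 1.20 from E17.5 to P0.5 in Cre-positive SC (limma, adjusted p = 0.000207) and fell by 9.98 ± 1.20 from P0.5 to P7.5 (limma, adjusted p = 8.46e-05). Cre-negative SC moved the same way, with Gna11 means of 18.2, 309 and 0.116 FPKM at E17.5, P0.5 and P7.5. The Cre difference of Gna11 at P0.5, 2.315 on log2(FPKM + 1), was not called, nor was its change between stages. Gnaz rose by 3.62 ± 0.72 over the first step (limma, adjusted p = 0.00287) and fell by 4.89 ± 0.72 over the second (limma, adjusted p = 0.000372), and Gna13 rose by 2.44 ± 0.74 over the first (limma, adjusted p = 0.0305). Without replicate 1 of Cre-positive SC at P0.5 the first-step calls of Gna13 and Gnaz were lost, at values of 2.22 and 3.23, and that of Gna13 was also lost without any of the other 3 libraries of the step, at 2.39 to 2.67, with a pseudocount of 0.1 and without the filter, and kept in 2 of 8 alternatives. Gng4, a Gγ, was at 38.6 and 13.1 FPKM in Cre-positive SC of P0.5 and 0 in both Cre-negative libraries, a difference of 4.56 ± 2.21 that did not pass (limma, adjusted p = 0.159).

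Against retina at P0.5, 4 of the 13 other subunit genes fitted were higher in Cre-positive SC and none lower, beside 26.4% of all genes higher. Gna11 differed by 6.34 ± 1.41 (limma, adjusted p = 0.00266) and Gnaz by 4.52 ± 0.62 (limma, adjusted p = 2.91e-05). Gna13 differed by 2.47 ± 0.62 (limma, adjusted p = 0.00628) and Gna12 by 2.12 ± 0.67 (limma, adjusted p = 0.0257). Without replicate 1 of P0.5 Cre-positive SC the calls of Gna11, Gna13 and Gna12 were lost, at values of 5.57, 2.24 and 1.47, and that of Gna12 was also lost without either retina library. Gnaz and Gna12 passed the filter of this fit only through the Cre-positive libraries of P0.5, in which they were high.

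Gnat1 and Gnb3 had their highest values in retina. Gnat1, the rod transducin Gα, was at 0 in the 4 retina libraries of E17.5 and P0.5, at 0.126 and 93.6 FPKM at P7.5, and at 257 and 50.2 FPKM in the adult. Gnb3, the cone Gβ, was at 3.30 to 24.8 FPKM before P7.5 and at 104 and 94.2 FPKM in the adult. Its 2 retina libraries of P7.5 were far apart, with a mean of 53.9 ± 71.5 FPKM (SD, n = 2). Gngt1, the rod Gγ, did not exceed 0.164 FPKM in any library, and Gnat2, the cone Gα, did not exceed 0.175 FPKM. No subunit gene was called for a step of retina or for adult SC against retina. In adult Cre-negative SC replicate 1, the library with photoreceptor markers, Gnat1 was at 14.1 FPKM, Gnb3 at 17.2 and Gngt2, the cone Gγ, at 9.92. In that library Gnb1 was at 36690 FPKM, between the 14989 and 43481 FPKM of the Cre-positive libraries, so the adult overlap of Gnb1 between Cre groups rests on it. The remaining Cre-negative value of 64220 FPKM, from the SC library with the highest glial sum, was above both.

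**Figure D4:**
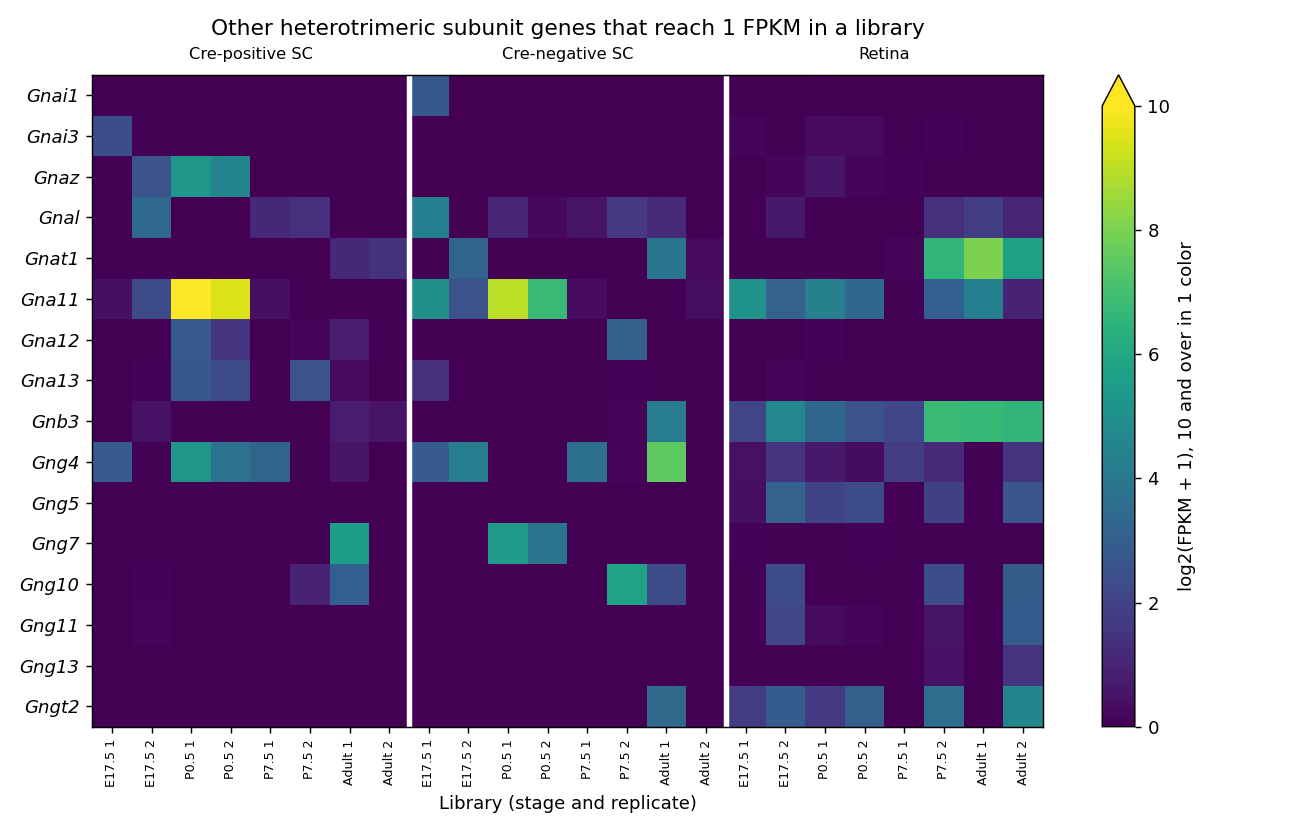
log2(FPKM + 1) of the 16 other subunit genes that reach 1 FPKM in some library, in the 24 libraries ordered by tissue and Cre, stage and replicate. Gna11 and Gnaz peak in the P0.5 columns of Cre-positive SC, Gnat1 and Gnb3 in late retina, and adult Cre-negative SC replicate 1 shows the transducin genes among SC libraries.

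Regulators and effectors of the pathway were drawn from 4 lists, chosen with earlier results known, and the counts describe only genes past the filter. Among genes for RGS proteins, which speed GTP hydrolysis by Gα, 4 of the 8 that could be fitted rose in Cre-positive against Cre-negative SC at P0.5 and none fell, beside 28.1% of all genes higher. Rgs9, a partner of Gβ5, was at 25.7 and 10.5 FPKM against 0 in both, a difference of 4.13 ± 0.72 (limma, adjusted p = 0.00106). Rgs3 and Rgs12 differed by 3.62 ± 0.80 and 3.76 ± 0.86.

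Of the effector genes, 5 of the 8 past the filter, of 26 listed, rose at P0.5 and none fell. Plcb4, Adcy3 and Prex1, and Adrbk2 of the next list, reached 1 FPKM in no SC library but the Cre-positive ones of P0.5. Rgs2, Rgs3, Adcy9 and Cacna1b reached it in only 1 SC library besides, a Cre-negative one of E17.5. All of these genes passed the filter of 2 libraries only through the group in which they were high. The counts of these lists are therefore a description and no support. Plcb4, a phospholipase C driven by Gαq, was at 15 and 17.3 FPKM against 0 in both, a difference of 4.10 ± 0.33 (limma, adjusted p = 9.22e-06). The adenylyl cyclases Adcy9 and Adcy3 differed by 2.31 ± 0.43 and 2.78 ± 0.52. Of genes for receptor desensitisation, 1 of 4 rose: Adrbk2, a G-protein-coupled receptor kinase that binds Gβγ, at 19.1 and 12.5 FPKM against 0.0231 and 0, a difference of 4.03 ± 0.35 (limma, adjusted p = 1.07e-05). None of the 4 fitted genes for chaperones and exchange factors was called. These lists had no call for Cre at the other 3 stages. In the fit of retina no RGS gene passed the filter, and the 2 effector, 2 desensitisation and 3 chaperone or exchange factor genes that did had no call.

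No gene followed the listed values of Gnb1 closely. Over the 20 libraries in which Gnb1 has a number, the 5 nearest of 4525 genes, by root mean square difference of centred log2(FPKM + 1), were Gata3 (4.90), Nfatc2 (5.18), Tcf7l2 (5.26), Sptbn1 (5.35) and Bcl11b (5.37). The corresponding spread of Gnb1 about its own mean was 6.33, most of it from the 5 entries of 0. These distances therefore rest largely on entries that are given here only as listed.

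In the run-off experiment, ribosomes were allowed to finish elongation before immunoprecipitation, so that a transcript held only by elongating ribosomes would leave the precipitate. The SC file with run-off held 349395 reads on genes, 10.7% of the 3262914 without, and the retina file 315009, 6.72% of 4686284. With 1 library each there was no replicate check, and intervals cover counting error only, PCR reads not being independent molecules. Levels are also given as counted reads scaled to the total on genes (RPM), and 3 reads correspond to 8.59 RPM in SC with run-off and 9.52 RPM in retina with run-off.

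Gnb1 changed by less than 2-fold in share. Its reads went from 266620 to 25183 in SC, or from 8.17 to 7.21% of the total (exact 95% interval 7.12 to 7.29), a ratio of shares of 0.882 (interval 0.871 to 0.893). In retina they went from 1427132 to 56840, or from 30.5 to 18.0% (interval 17.9 to 18.2), a ratio of 0.593 (interval 0.588 to 0.597).

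In SC, Gnai2 went from 425 reads to 1, a ratio of shares of 0.0220 (interval 0.000555 to 0.123). Gng2 went from 118 reads to 3 and Gng3 from 38 to 1, and for Gng3 the interval of the ratio, 0.00606 to 1.46, included equal shares. Gnao1 (802 and 98 reads), Gnas (1501 and 145) and Gnaq (667 and 99) changed by less than 2-fold in share, with ratios of 1.14, 0.902 and 1.39. Gnb2 went the other way, from 36 reads to 303, a ratio of 78.6 (interval 55.5 to 114). Gnb4 and Gnb5 had no read in either SC file.

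In retina, Gnb5 went from 811 reads to 2, a ratio of 0.0367 (interval 0.00444 to 0.133), and Gnao1 from 248 to 1, a ratio of 0.0600 (interval 0.00151 to 0.337). Gnaq had 66 reads and 1, and the interval of its ratio, 0.00562 to 1.30, included equal shares. Gng2 had 27 reads and 0, and Gnb4 4 and 0, both below the level of 3 reads in the file with run-off, so a decrease was not detectable at this depth. Gnas (446 and 23) and Gng3 (222 and 11) changed by less than 2-fold in share. Gnb2 was again higher in share, with 98 and 37 reads and a ratio of 5.62 (interval 3.74 to 8.28), as was Gnai2, with 97 and 15 reads and a ratio of 2.30 (interval 1.24 to 3.99). Gnai2 therefore moved in opposite directions in the 2 tissues, on 1 read in SC and 15 in retina.

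By count, 3 members were 2-fold or more lower in share with run-off in SC, where 2 of the 10 had no read, and 5 in retina. The same was seen in 67.8% of 5871 and 66.4% of 9464 genes with a read. These counts include Gng3 in SC and Gnaq in retina, whose intervals included equal shares. They also include Gng2 and Gnb4 in retina, for which a decrease was not detectable at this depth. A share 2-fold or more higher was seen for 1 member in SC and 2 in retina, beside 22.3% and 21.6% of genes. Without scaling to the library total, 7 members in SC and 10 in retina had fewer reads with run-off by 2-fold or more. The files with run-off themselves held 10.7 and 6.72% of the reads, and the share over all genes is not given here. These unscaled counts are therefore no result about the members. Among the other subunits, Gnaz had 3 reads without and 179 with run-off in SC, and Gna11 had 281 and 0. Gnat1, with 17334 and 962 reads in retina, kept 0.826 of its share.

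**Figure D5:**
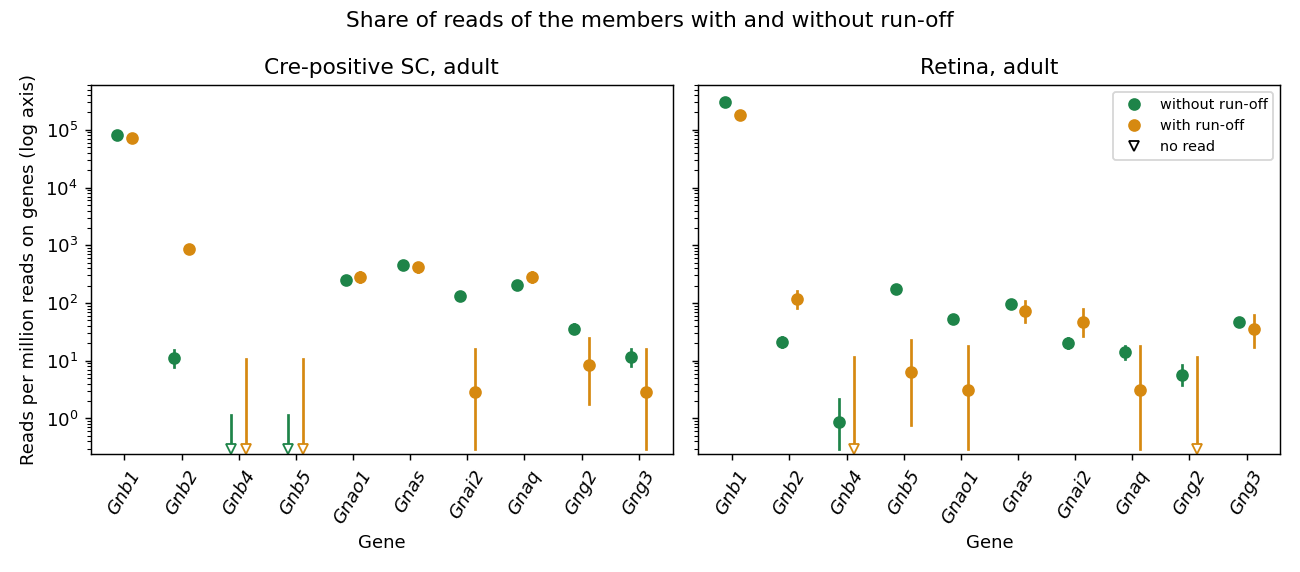
RPM (log axis) for each member in adult Cre-positive SC and retina without and with run-off, 1 library each, with exact 95% intervals that are cut at the lower edge and triangles for files without a read. Gnb1 stays far above the other members in all 4 files, Gnb2 is higher with run-off in both tissues, and Gnai2 is lower in SC and higher in retina.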

How the data were processed

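The authors mapped reads to mm10 (TopHat2 2.0.12) for all libraries. They deposited FPKM made with Cufflinks 2.2.1 (24 libraries) and read counts per gene from HTSeq 0.6.1p1 for the 4 run-off libraries. Retina and SC RNA was amplified by PCR, with additional rounds for SC. Lists and members were chosen with earlier results of these data known. limma 3.58.1 (trend, robust, statmod 1.5.0, R 4.3.3) was run on log2(FPKM + 1) for genes at 1 FPKM or more in at least 2 libraries. The 16 SC libraries were fitted as 8 groups, the 8 retina libraries as 4, and all 24 as 12 for SC against retina. The 4 genes without a number in some library, Gnb1 among them, were left out. Tests are two-sided with Benjamini-Hochberg adjustment at 0.05, after a check on simulated data. Depth was estimated from 3290 single-transcript genes with a fragment length of 200 bases. Named were the members, other subunits called or among the 5 highest, up to 3 genes of each pathway list called, the first-ranked gene of each library, and the 5 patterns nearest to Gnb1. Run-off shares carry exact binomial intervals (scipy 1.17.1). Python was 3.11.15.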

Additional observations from a re-analysis of the deposited data

Results flagged for a closer look

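The difference between Cre-positive and Cre-negative SC changed between consecutive stages for 3 subunit genes that were not chosen by their levels, each by a limma interaction term with Benjamini-Hochberg adjustment. For Gnaz the Cre difference was 3.62 higher at P0.5 than at E17.5 (adjusted p = 0.0215; kept in 7 of 12 alternatives and lost with a pseudocount of 0.1 or without any of the 4 P0.5 SC libraries), and its change from P0.5 to P7.5 was -4.89 (adjusted p = 0.00532; kept in 11 of 12, and lost without replicate 1 of Cre-positive SC at P0.5). Both P0.5 Cre-positive libraries held Gnaz, at 37.9 and 21.8 FPKM, and all 8 Cre-negative libraries listed it at 0. For Gna13 the Cre difference was 3.14 higher at P0.5 than at E17.5 (adjusted p = 0.0476), a call kept in 2 of 12 alternatives. For Gna12 its change from P0.5 to P7.5 was -3.62 (adjusted p = 0.0472), also kept in 2 of 12, and 7.10 FPKM in replicate 2 of P7.5 Cre-negative SC enters that value; without that library it was -2.11. Gnaz and Gna12 passed the filter of the SC fit only through the Cre-positive libraries of P0.5, in which they were high. The causes were not tested. With 2 libraries a group, no single library could be set apart by a test of outlying values.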

How the results depend on the processing

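Calls of other subunit genes were counted over all stages of a comparison. Cre-positive against Cre-negative SC had 3 calls, 5 when each stage was fitted alone, and 1 to 4 on leaving out a library. Cre-positive SC against retina had 4, 8 when each stage was fitted alone, and 1 to 5 on leaving out a library. Consecutive stages of Cre-positive SC had 5, and 3 to 6 on leaving out a library; retina had 0, and 0 to 1. The 4 interaction calls became 2 with a pseudocount of 0.1, 2 without the filter, 2 with the replicate block, and 0 to 5 on leaving out a library, with 0 without replicate 1 of Cre-positive SC at P0.5. In the run-off comparison, members 2-fold lower went from 3 to 7 in SC and from 5 to 10 in retina without scaling. The files with run-off held 10.7 and 6.72% of the reads of those without. The remaining alternatives kept these counts within 1.5 times, and no called value changed sign. The cause was not tested.

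Whether replicate numbers pair the samples was not established, since no source ties a number to a litter: replicate differences of Cre-positive and of Cre-negative SC correlated at 0.565, 0.427, 0.456 and 0.0810 from E17.5 to the adult, and those of Cre-positive SC and retina at 0.15, 0.449, 0.526 and -0.0981. With the replicate block the interaction calls of Gna13 and Gna12 were lost and the other counts of subunit calls were unchanged; over all genes, the 94 calls for Cre at E17.5 became 19, the 9 in adult SC became 0, and the 7 for adult SC against retina became 15. Over all genes, fitting P0.5 alone gave 3370 calls against 2007 for SC against retina. Leaving out a library gave 448 to 1244 calls against 1944 for Cre at P0.5, 126 to 865 against 94 at E17.5, 0 to 55 against 0 at P7.5 and 22 to 112 against 9 in adult SC. It gave 231 to 1679 against 1612 and 273 to 1360 against 1780 for the first 2 steps of Cre-positive SC, and 188 to 2089 against 1621 and 23 to 1153 against 1285 for their interactions. For SC against retina it gave 611 to 1298 against 2007 at P0.5 and 23 to 512 against 95 at E17.5. At E17.5, fits of the stage alone gave 0 calls where 94 and 95 had been made. In the 5 shallowest libraries, adult SC and Cre-negative replicate 1 of E17.5, 3 fragments on a 2 kb transcript correspond to 0.756 to 3.23 FPKM, below which levels were not resolved.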
